A study of Mus musculus with 8 samples.

Results

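The Toll-like receptor genes of the mouse lung were examined in untreated wild-type and Scgb3a2-transgenic mice. They were chosen by name, as every probe whose gene symbol in the deposited matrix was Tlr1, Tlr2, Tlr3, Tlr4, Tlr5, Tlr6, Tlr7, Tlr8, Tlr9 or Tlr13. Of these 10 genes 9 had a probe, out of 21229 gene symbols on the array, and Tlr3 and Tlr4 had a pair of probes each, which gave 11 probes. Tlr13 was not measured here, nor were Tlr11 and Tlr12, which complete the receptors of the mouse.

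RNA of whole lung from 4 wild-type and 4 transgenic C57BL/6 male mice of 8 to 10 weeks, none of them treated, was hybridized to 8 two-color Agilent arrays. The transgene placed Scgb3a2, a small secreted protein of the airways, under the human SP-C promoter, which is active in alveolar type II cells, and the transgenic mice came from a single founder line. Cy5 marked the mouse and Cy3 a common pool of whole mouse lung on every array, and no dyes were swapped. The pool held the same amount of RNA of each sample according to the methods. The values below are log2 ratios of a mouse to this pool, normalized within each array. A value of 0 is the typical ratio of probes of that brightness on the array, and below the pool means a value under 0.

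Toll-like receptors are membrane proteins that recognize molecules of microbes through leucine-rich repeats and signal through a cytoplasmic domain shared with the interleukin-1 receptor. Tlr2 with Tlr1 or Tlr6 binds bacterial lipopeptides, Tlr4 with its partner MD-2 binds lipopolysaccharide and Tlr5 binds flagellin, all at the cell surface. Tlr3, Tlr7, Tlr8, Tlr9 and Tlr13 sit in endosomes and recognize nucleic acids. Both classes lead through the adaptors MyD88 and TRIF to NF-kB and interferon regulatory factors. In the lung they are known from alveolar macrophages, neutrophils, dendritic cells and the epithelium. In whole lung RNA, fewer cells of a type and less RNA per cell cannot be told apart.

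The arrays held 41174 probes, controls not counted, of which 32653 could be tested, and 1.72% to 6.46% of the spots of an array carried an outlier flag and were left out. Each of 4 slides carried an array of each genotype and the slides were scanned on 2 days, so both the slide and the scan day could be used as a block. Scgb3a2 itself was higher in transgenic lungs by 0.88 on the log2 scale (standard error 0.24, unadjusted p = 0.0033 and adjusted p = 1 by limma), with an exact permutation p of 0.0571. The smallest p that this permutation test can give for 4 mice in each group is 0.0286. Sftpc of type II cells and Scgb1a1 of the airways were well above background on all 8 arrays. Of genes of other organs Alb was so on 6, Apoa1 on 7 and Ins2 on 8, so this flag alone does not mark a lung transcript. Of the 4 type II genes tested, Sftpc, Sftpb and Sftpa1 had a lower mean in transgenic lungs. Their log2 differences were -0.60, -0.57 and -0.75 (standard errors 0.41, 0.27 and 0.29). Abca3 differed by only -0.014 with a standard error of 0.1, and the median over the 4 genes was -0.59. The part of type II genes in the receptor values was not tested. Nothing in the labels says whether the mice of a group shared a litter, and each mouse was counted as independent. The p-values set the genotype difference against the spread between arrays, which holds differences between mice and spot error together.

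No Toll-like receptor passed the test between the genotypes. By limma 0 of the 11 probes had an adjusted p under 0.05, and over all probes tested the share was 0%. At an unadjusted p under 0.05 the count of receptor probes was also 0, by limma and likewise by the methods' t-test. Of all probes tested 2.09% passed by limma and 2.65% by the methods' t-test. For 0 of the 11 probes did the genotypes not overlap, against 1.98% of all probes. The transgenic mean was above the wild-type mean for 6 probes and below it for 5, with a median log2 fold change of 0.029 for the receptors and of 0.00099 for all probes. Over the 11 probes the 95% intervals of the log2 fold change ran from -0.56 at the lowest to 0.76 at the highest limit. These limits bound what 4 mice against 4 could have shown only for ratios with an offset added to each channel. With an offset of 0 the log2 fold change was 0.42 rather than 0.26 for Tlr1 and -0.31 rather than -0.23 for Tlr7. It stayed at -0.06 for Tlr2 and turned from -0.038 to 0.057 for Tlr8. The limits therefore do not carry over to ratios without the offset.

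**Figure D1:**
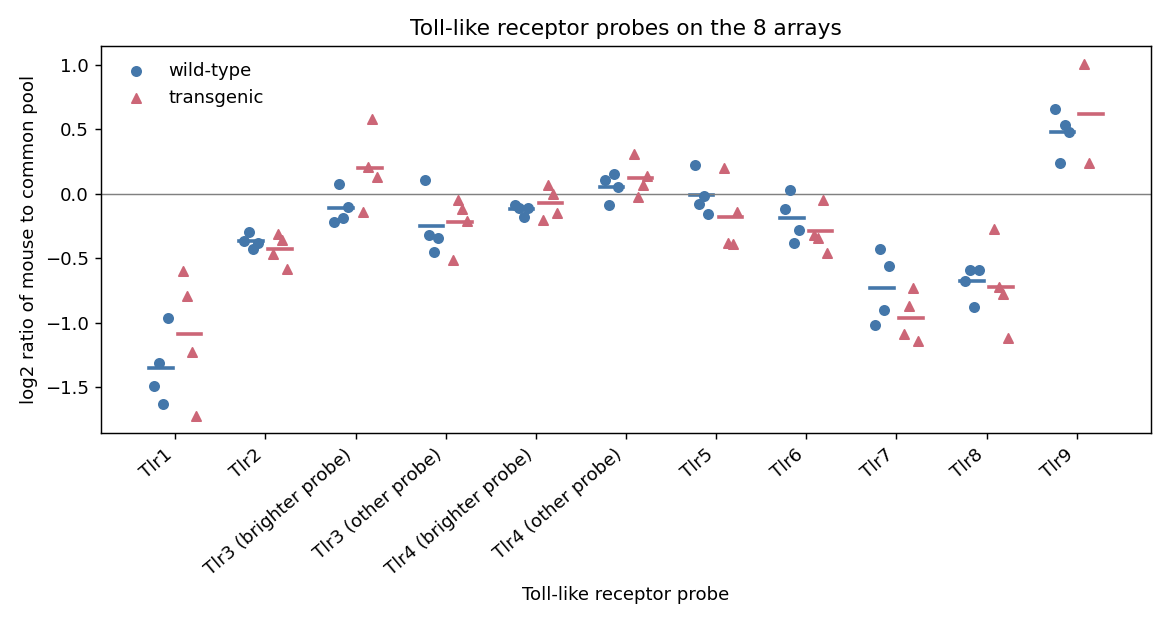
Log2 ratio of each mouse to the common pool (vertical axis) for the 11 Toll-like receptor probes (horizontal axis), with wild-type mice as circles, transgenic mice as triangles and the mean of each genotype as a bar. The genotypes overlap for every probe, and Tlr1, Tlr2, Tlr7 and Tlr8 lie below 0 on all 8 arrays.

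Among the receptors of the cell surface, Tlr1 varied most. In wild-type replicates 1 to 4 its log2 ratio was -1.49, -1.31, -1.63 and -0.96, and in transgenic replicates 1 to 4 it was -0.60, -0.79, -1.23 and -1.72. The wild-type values lay between transgenic replicate 1, the highest of the 8 mice, and transgenic replicate 4, the lowest. The log2 fold change was 0.26 (standard error 0.23, 95% interval -0.24 to 0.76, adjusted p = 1 by limma), an interval from 0.849-fold to 1.69-fold. Without transgenic replicate 4 it was 0.47, with an unadjusted p of 0.0284 by limma. It was 0.10 without transgenic replicate 1, 0.16 without transgenic replicate 2 and 0.17 without wild-type replicate 3, so its size depended on single mice in both directions. On the 4 slides the transgenic mouse was above the wild-type mouse of its slide on 2, with differences from -0.26 to 0.89.

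Tlr2, the partner that Tlr1 and Tlr6 share, was the steadiest of these receptors within wild-type lungs apart from Tlr4. Its values were -0.37, -0.30, -0.43 and -0.38 in wild-type and -0.47, -0.31, -0.36 and -0.58 in transgenic replicates 1 to 4. All 8 lay below the pool. The wild-type values lay within the range of the transgenic values but for wild-type replicate 2, and their SD was 0.052 against 0.12 in transgenic mice. The log2 fold change was -0.06 (standard error 0.10, 95% interval -0.27 to 0.15, adjusted p = 1 by limma), so a difference beyond 0.827-fold or 1.11-fold lay outside the interval.

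Tlr4, the receptor for lipopolysaccharide, gave -0.09, -0.11, -0.18 and -0.11 in wild-type and -0.20, 0.07, -0.0049 and -0.15 in transgenic replicates 1 to 4 with its brighter probe (A_51_P300806). The transgenic values spread on both sides of the wild-type ones, and the log2 fold change was 0.05 (standard error 0.10, 95% interval -0.16 to 0.27, adjusted p = 1 by limma). The other Tlr4 probe (A_52_P24230) was well above background on 4 of the 8 arrays and gave a log2 fold change of 0.07 (95% interval -0.17 to 0.30). Over the 8 arrays the values of these probes ran against each other, with a Pearson r of -0.64, so the brighter one represents the gene where a gene is counted once.

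Tlr2 and the brighter Tlr4 probe were each spotted 10 times on an array, which gives the error of a single spot. After removal of flagged spots 5 to 10 spots per array were left for Tlr2 and 8 to 10 for Tlr4. The SD of single spots within an array, pooled over the arrays, was 0.153 for Tlr2 and 0.165 for Tlr4 on the log2 scale. A mean over the spots of an array had a standard error of 0.0245 to 0.0941 for Tlr2 and of 0.0258 to 0.0748 for Tlr4. The means of the 8 mice had an SD of 0.0916 for Tlr2 and of 0.0907 for Tlr4. Each of the other receptors had a single spot per probe and array, so for these the spot error and the difference between mice cannot be told apart.

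**Figure D2:**
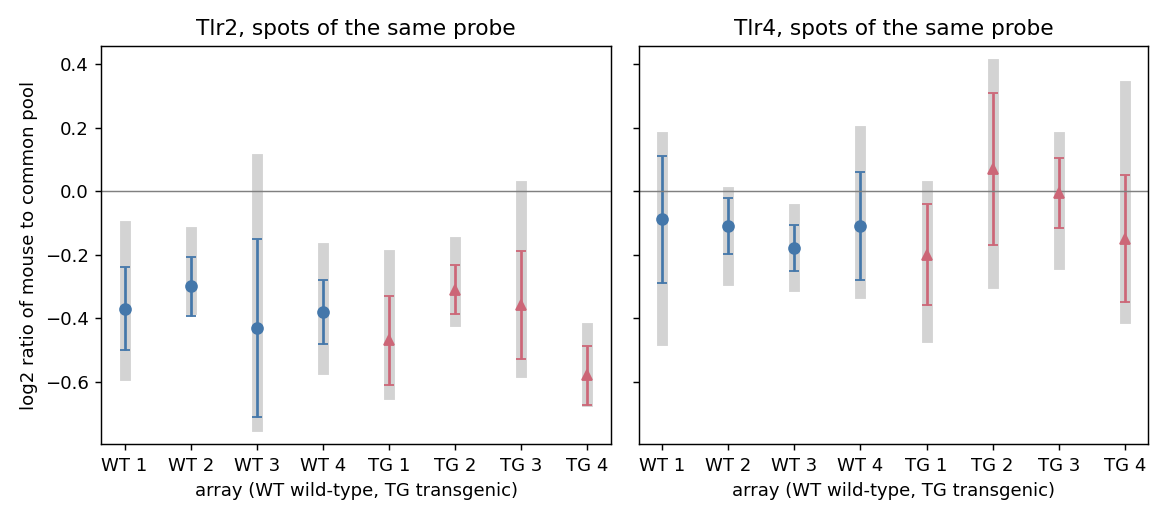
Log2 ratio to the common pool (vertical axis) of the repeated spots of Tlr2 (left) and Tlr4 (right) on each array (horizontal axis), with the mean of an array as a circle (wild-type) or a triangle (transgenic), the SD over its spots as a bar and the range of its spots in grey. The SD of the 8 means is 0.0916 for Tlr2 and 0.0907 for Tlr4, and the standard error of a mean over its spots is 0.0245 to 0.0941 and 0.0258 to 0.0748.

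Tlr5, the flagellin receptor, had values of 0.22, -0.08, -0.02 and -0.16 in wild-type and of 0.20, -0.38, -0.39 and -0.14 in transgenic replicates 1 to 4. Transgenic replicate 1 was high and the genotypes overlapped, yet on every one of the 4 slides the transgenic mouse was the lower, by a difference from -0.30 to -0.015. The log2 fold change was -0.17 (standard error 0.15, 95% interval -0.49 to 0.15, adjusted p = 1 by limma). Without transgenic replicate 1 it was -0.29, with an unadjusted p of 0.034 by limma, while it was -0.091 without wild-type replicate 1 (unadjusted p = 0.559) and -0.10 without transgenic replicate 2 or 3.

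For Tlr6, which pairs with Tlr2, the values were -0.12, 0.03, -0.38 and -0.28 in wild-type and -0.32, -0.34, -0.05 and -0.46 in transgenic replicates 1 to 4. Both genotypes spread over about the same range, and the log2 fold change was -0.10 (standard error 0.12, 95% interval -0.38 to 0.17, adjusted p = 1 by limma). Tlr1 and Tlr6 are neighbors in the genome, and the Pearson r of their values over the 8 arrays was 0.03.

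Among the receptors of the endosome, Tlr3, which binds double-stranded RNA, came nearest to a difference. Its brighter probe (A_51_P291906) gave -0.22, 0.08, -0.19 and -0.10 in wild-type and -0.14, 0.21, 0.58 and 0.13 in transgenic replicates 1 to 4. Of the transgenic mice 3 lay above all wild-type mice and transgenic replicate 1 lay among them. The log2 fold change was 0.30 (standard error 0.15, 95% interval -0.018 to 0.62, unadjusted p = 0.0621 and adjusted p = 1 by limma), and the exact permutation p was 0.0857. On each of the 4 slides the transgenic mouse was the higher, by 0.081 to 0.68. With the slide as a block the unadjusted p of limma was 0.0324, and with the scan day as a block it was 0.0291. Leaving out transgenic replicate 1 gave 0.41 (unadjusted p = 0.00983 by limma), leaving out wild-type replicate 2 gave 0.37 (unadjusted p = 0.0434) and leaving out transgenic replicate 3 gave 0.17 (unadjusted p = 0.206). The scanner software's processed signals gave 0.57 for Tlr3 (unadjusted p = 0.0185 by limma). In the other direction the log2 fold change was 0.15 with no normalization (unadjusted p = 0.449), 0.17 with the sample channel alone (unadjusted p = 0.456) and 0.18 with normexp fitted on all spots (unadjusted p = 0.113).

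The other Tlr3 probe (A_52_P85174) gave a smaller difference. Its values were 0.11, -0.32, -0.45 and -0.34 in wild-type and -0.51, -0.05, -0.12 and -0.21 in transgenic replicates 1 to 4, a log2 fold change of 0.03 (standard error 0.14, 95% interval -0.29 to 0.35, adjusted p = 1 by limma). The pair of Tlr3 probes had a Pearson r of 0.30 over the 8 arrays, and both were well above background on all of them. Which of them reads the transcript of Tlr3 better was not tested.

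Tlr7, a receptor for single-stranded RNA, gave -1.02, -0.43, -0.90 and -0.56 in wild-type and -1.09, -0.87, -0.73 and -1.14 in transgenic replicates 1 to 4. Wild-type replicates 2 and 4 were the highest of the 8 mice, and the transgenic values overlapped with those of wild-type replicates 1 and 3. The log2 fold change was -0.23 (standard error 0.15, 95% interval -0.56 to 0.10, unadjusted p = 0.156 and adjusted p = 1 by limma). The transgenic mouse was the lower on 4 of 4 slides, with differences from -0.43 to -0.063. With the slide as a block the unadjusted p of limma was 0.0483 and with the scan day as a block it was 0.0366. It was -0.13 without wild-type replicate 2 (unadjusted p = 0.407 by limma) and -0.038 with normexp fitted on all spots (unadjusted p = 0.871), and -0.47 with the scanner's processed signals (unadjusted p = 0.0676). Tlr7 moved with the scan day as well, with a mean of -1.04 on the first and of -0.65 on the second day, each day holding 2 mice of each genotype.

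Tlr8, the neighbor of Tlr7 on the X chromosome, gave -0.68, -0.59, -0.88 and -0.59 in wild-type and -0.27, -0.72, -0.78 and -1.12 in transgenic replicates 1 to 4. As for Tlr1, transgenic replicate 1 was the highest and transgenic replicate 4 the lowest of all mice. The log2 fold change was -0.04 (standard error 0.16, 95% interval -0.39 to 0.32, adjusted p = 1 by limma), and its direction turned to 0.12 with the scanner's processed signals and to 0.095 without transgenic replicate 4.

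Tlr9, the receptor for unmethylated CpG DNA, gave 0.66, 0.24, 0.53 and 0.48 in wild-type replicates 1 to 4 and 1.01 and 0.24 in transgenic replicates 1 and 2. The spots of transgenic replicates 3 and 4 carried an outlier flag and were left out, so the fit rests on 4 wild-type and 2 transgenic mice. Its log2 fold change was 0.15 (standard error 0.21, 95% interval -0.33 to 0.62, adjusted p = 1 by limma). With the flagged spots kept, these mice had 0.11 and 0.13 and the log2 fold change was -0.088, so the direction for Tlr9 depends on the flag.

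**Figure D3:**
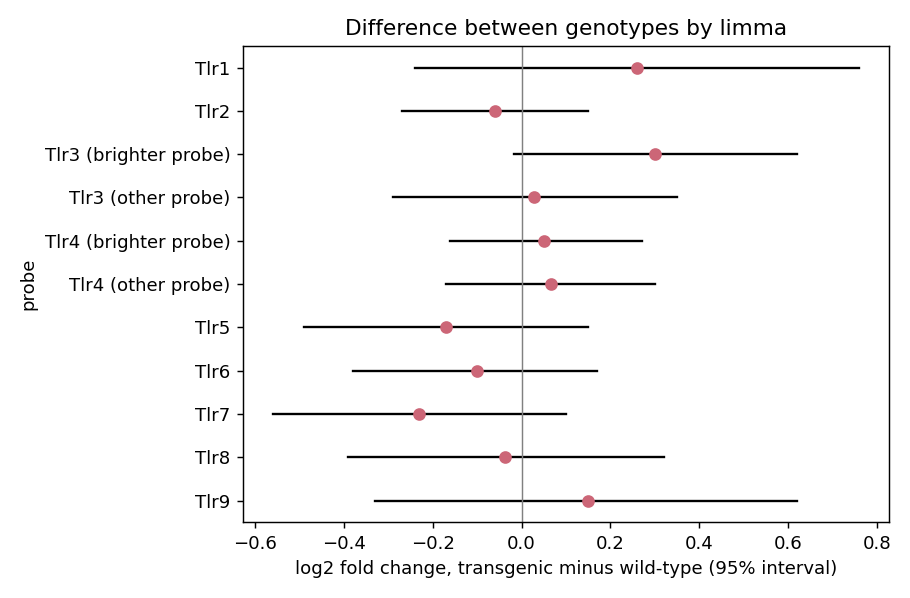
Log2 fold change of transgenic against wild-type lungs (horizontal axis) for the 11 Toll-like receptor probes (vertical axis), with limma's estimate as a point and its 95% interval as a line. Every interval includes 0, and that of the brighter Tlr3 probe, from -0.018 to 0.62, comes nearest to leaving it out.

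Several receptors lay apart from the pool whichever the genotype. The mean over the arrays was below 0 for 7 of the 9 genes, and for 15953 of the 32653 probes tested. Of the 7, Tlr4 at -0.10 ± 0.091 and Tlr5 at -0.094 ± 0.23 (SD, n = 8) lay close to 0. Tlr1, Tlr2, Tlr7 and Tlr8 were below the pool on all 8 arrays, 4 of 11 probes where 20.4% of all probes tested were below on every array with a value. Tlr9 alone was above the pool on every array with a value, as were 21.9% of all probes. Tlr1, Tlr7 and Tlr8 were at least 1.5-fold below the pool in the mean of the arrays, a size that 4.73% of all probes reached. Their means were -1.22 ± 0.40 (SD, n = 8) for Tlr1, -0.84 ± 0.25 (SD, n = 8) for Tlr7 and -0.70 ± 0.25 (SD, n = 8) for Tlr8, and the median over all probes was 0.0089.

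The signals themselves showed the same. Above the local background Tlr1 had a median signal of 74.8 in Cy5 against 270 in Cy3, Tlr7 of 82 against 218 and Tlr8 of 44.8 against 124. On all 8 arrays the mouse was dimmer than the pool for these 3 genes, and both channels were well above background. The offset of 50 that was added to each channel pulls the ratios of such dim spots toward 0. Without it the mean log2 ratio was -1.70 for Tlr1, -1.18 for Tlr7 and -1.21 for Tlr8, and from the scanner's processed signals it was -1.72, -1.26 and -1.51. A pool made of equal parts of the 8 mice would lie within the range of these mice for any gene, and since no dyes were swapped, the dye and the content of the pool cannot be told apart. The ratios to the pool are therefore given as measured and are no statement on levels in the lung.

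The receptors were also compared with each other over the arrays. Among the 36 pairs of receptor genes the Pearson r of the log2 ratios ran from -0.89 to 0.81, and it was above 0 for 23. Tlr1 and Tlr8 had an r of 0.80 over 8 arrays, Tlr2 and Tlr7 of 0.71 and Tlr2 and Tlr6 of 0.69, while Tlr3 and Tlr5 ran against each other with an r of -0.82. The pairs at the ends of the range both held Tlr9, Tlr5 with Tlr9 at 0.81 and Tlr2 with Tlr9 at -0.89, over 6 arrays each. These are descriptions of 8 mice that share the pool, the slides and the scan days.

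Tlr1 and Tlr8 were highest and lowest on the same arrays as the mean of 5 neutrophil markers. The log2 ratio of these genes, which had a value on every array (S100a8, S100a9, Retnlg, Csf3r and Camp), ran in the mean from -2.09 to 0.17 in wild-type and from -2.19 to 0.84 in transgenic mice. It was highest in transgenic replicate 1, next in wild-type replicate 4 and lowest in transgenic replicate 4. S100a9, a calcium-binding protein of neutrophil granules and cytoplasm, was at -2.45, -3.34, -3.43 and 0.32 in wild-type and at 1.54, -1.44, -1.64 and -3.19 in transgenic replicates 1 to 4.

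The same mice stood at the ends of Tlr1 and Tlr8. Over the 8 arrays the Pearson r with the neutrophil mean was 0.87 for Tlr1 and 0.82 for Tlr8, and without transgenic replicate 1 and wild-type replicate 4, the arrays farthest from the median of that mean, it was 0.86 and 0.55. For the other 7 receptors r ran from -0.17 to 0.60 over all arrays with a value. Without the same 2 arrays it was 0.95 for Tlr4, 0.69 for Tlr2 and 0.58 for Tlr3, above that of Tlr8, so the relation is not particular to Tlr1 and Tlr8. Tlr1 also had an r of 0.86 with the mean of 5 B cell genes, 0.71 without the 2 arrays farthest from its median, and Tlr1 and Tlr8 had one of 0.82 and 0.71 with T and NK cell genes (0.59 and 0.25 without 2 arrays). With the mean of 3 genes listed for plasmacytoid dendritic cells (Ccr9, Tcf4 and Irf8) r was 0.80 for Tlr1 and 0.56 for Tlr8 (0.62 and 0.18). Of the other genes of that list, Siglech was well above background on 0 of 8 arrays and Bst2 had a value on only 5. Tlr2 had an r of 0.80 with the mean of 7 macrophage genes, 0.60 without the 2 arrays farthest from its median. With the same mean r was 0.75 for Tlr4 and 0.35 for Tlr6 (0.41 and 0.78 without these arrays), so that relation is not particular to Tlr2. These are among 63 pairs of a receptor and a marker list that were computed, all over the same arrays. Of the 8 neutrophil genes listed, Mmp9 and Ngp lacked a value on an array. Mmp9 did not share the order of the others and was highest, at 1.00, in wild-type replicate 3. No probe of Ly6g was found by symbol, nor of the macrophage gene Ear2, and the part of these cells in the receptor values was not tested.

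**Figure D4:**
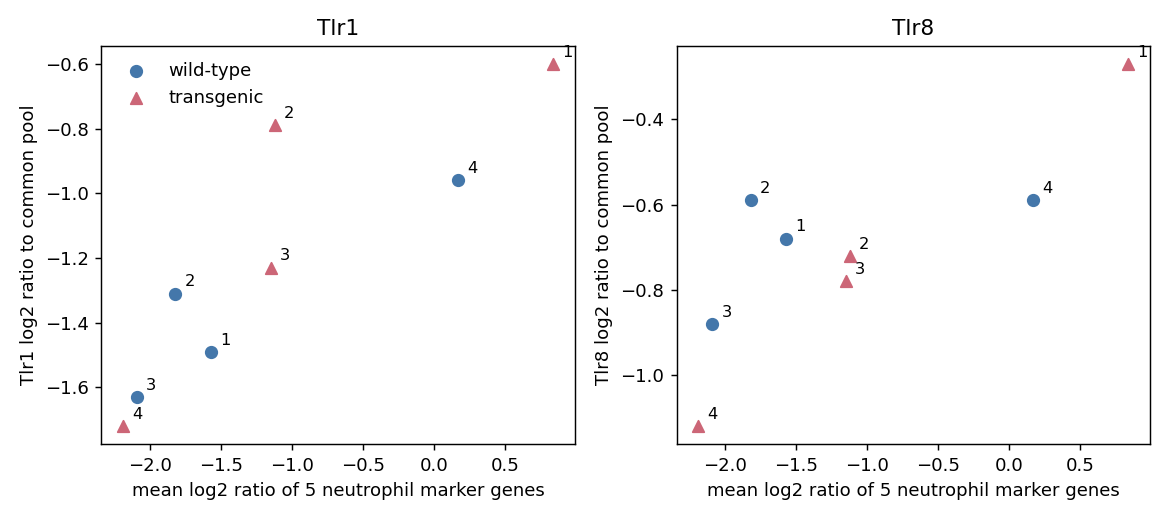
Log2 ratio to the common pool of Tlr1 (left) and Tlr8 (right) on the vertical axes against the mean log2 ratio of 5 neutrophil marker genes on the horizontal axes, with wild-type mice as circles, transgenic mice as triangles and the replicate number beside each. Transgenic replicate 1 is at the upper right and transgenic replicate 4 at the lower left in both panels.

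Since Tlr1 and Tlr8 had a high r with each other, and Tlr3 and Tlr9 had the smallest p and the highest ratio to the pool, the 250 bases before the start of these 4 genes are shown, on the strand of the gene, from RefSeq on GRCm38.p6. Of the 10 genes 8 had an entry. Capitals mark matches, on either strand, to the core of the myeloid factor PU.1 (GAGGAA), to the first letters of an NF-kB site (GGGANTTTC), to an AP-1 site (TGANTCA) or to the core of the interferon-stimulated response element (GAAANNGAA), where N is any base.
Tlr1, chr5:64933559-64933808, minus strand: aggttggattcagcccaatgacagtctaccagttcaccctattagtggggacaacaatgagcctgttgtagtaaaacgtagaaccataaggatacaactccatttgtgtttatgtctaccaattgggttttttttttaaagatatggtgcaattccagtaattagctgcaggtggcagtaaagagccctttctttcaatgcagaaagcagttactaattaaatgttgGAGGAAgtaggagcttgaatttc
Tlr8, chrX:167264330-167264579, minus strand: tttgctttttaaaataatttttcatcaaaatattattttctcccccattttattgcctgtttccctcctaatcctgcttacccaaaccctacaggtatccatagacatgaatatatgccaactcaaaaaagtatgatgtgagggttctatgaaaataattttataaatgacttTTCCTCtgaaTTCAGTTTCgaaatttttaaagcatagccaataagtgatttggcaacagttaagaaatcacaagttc
Tlr3, chr8:45410381-45410630, minus strand: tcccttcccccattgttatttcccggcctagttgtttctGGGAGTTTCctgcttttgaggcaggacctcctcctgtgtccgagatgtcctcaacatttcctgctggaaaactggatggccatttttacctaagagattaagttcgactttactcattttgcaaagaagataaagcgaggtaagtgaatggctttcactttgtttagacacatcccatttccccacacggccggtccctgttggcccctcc
Tlr9, chr9:106222348-106222597, plus strand: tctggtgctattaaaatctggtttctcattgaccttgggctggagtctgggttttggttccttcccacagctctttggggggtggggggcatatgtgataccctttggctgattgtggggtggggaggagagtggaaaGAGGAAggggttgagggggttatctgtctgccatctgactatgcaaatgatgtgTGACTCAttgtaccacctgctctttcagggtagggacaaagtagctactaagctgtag

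The windows of Tlr1, Tlr8 and Tlr9 each held a PU.1 core, which began 23, 77 and 112 bases before the start, and so did that of Tlr13. This core was present in 23.3% of the 32851 windows of that length in the mouse table, so a match is common. Tlr3 held the NF-kB letters, found in 0.941% of the windows, and Tlr9 also the AP-1 letters, found in 6.75%. The letters of the interferon-stimulated response element, which 7.13% of the windows held, were found in Tlr8 and, as a pair of overlapping matches, in the first of 2 windows of Tlr6. The second windows of Tlr1 and Tlr6, at another start, held no match. The windows of Tlr2 and Tlr5 held none of the 4 motifs. These are matches of letters, and no measurement here bears on the binding of a factor.

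For each of the 8 receptors well above background and with a value on all arrays, which leaves out Tlr9, the 3 genes most like it over the 8 arrays were found among 29502 probes with a value on each. The Pearson r of these 24 genes ran from 0.938 to 0.987. Tlr1 was most like Metrn and Gm9856, and Tlr8 most like Cbln2, Pla1a and Agap2. Tlr2 was most like Ptger2, a prostaglandin receptor, Clec4n, a lectin receptor of myeloid cells, and Mt3. Tlr3 was most like Brf2, Pmpcb and Ank1, Tlr4 like Maml1, Pop4 and Imp3, and Tlr5 like Serpinb9e, Otor and Gprc5c. For Tlr6 these were 4930505N22Rik, Zmat4 and Csn3, and for Tlr7 Cog8, Nup98 and Myl6b. Each is the highest of many values of r over 8 arrays that share a pool, and the genes are named as a description.

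The genes around the receptors were read from lists of co-receptors, adaptors, kinases, transcription factors, inhibitors and induced targets. Of 76 such genes 70 were tested, 48 of them with a higher and 22 with a lower mean in transgenic lungs, and their median log2 fold change was 0.059. Of all 32653 probes tested 16448 had a higher and 16205 a lower mean, with a median of 0.00099. Whether the pathway genes differ from that share was not tested. None had an adjusted p under 0.05 by limma. At an unadjusted p under 0.05 limma called 3, all higher in transgenic lungs, next to 2.09% of all probes. The methods' t-test called 2, next to 2.65% of all probes.

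**Figure D5:**
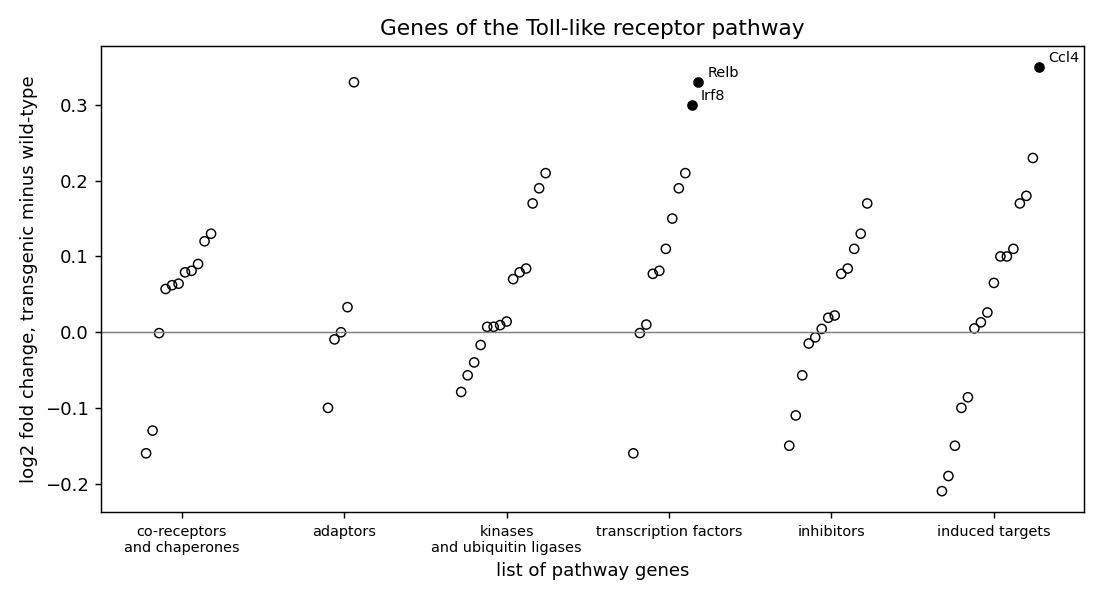
Log2 fold change of transgenic against wild-type lungs (vertical axis) for the 70 tested genes in 6 lists of the Toll-like receptor pathway (horizontal axis), each gene a circle. Filled circles are the 3 genes with an unadjusted p under 0.05 by limma (Relb, Irf8 and Ccl4), and all 3 lie above 0.

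The 3 genes called by limma were Irf8, Relb and Ccl4. Irf8, a transcription factor of myeloid and dendritic cells, had values of -0.68, -0.57, -0.51 and -0.44 in wild-type and of -0.06, -0.09, -0.30 and -0.56 in transgenic replicates 1 to 4. Of the transgenic mice 3 lay above all wild-type mice and transgenic replicate 4 lay among them. Its log2 fold change was 0.30 (standard error 0.13, unadjusted p = 0.0346 and adjusted p = 1 by limma). Relb, an NF-kB subunit, had -0.39 and -0.37 in wild-type replicates 1 and 3 and -0.09, 0.04, -0.0071 and -0.13 in transgenic replicates 1 to 4. Its spots on the other two wild-type arrays were left out for flags, and the log2 fold change was 0.33 (standard error 0.12, unadjusted p = 0.0221 and adjusted p = 1 by limma). With the slide as a block Relb was no longer called, while Pik3ap1, an adaptor of phosphoinositide signaling, was (0.69, unadjusted p = 0.0205 by limma). Irf8 and Ccl4 stayed called in that fit, with unadjusted p of 0.0409 and 0.00659 by limma. Pik3ap1 had a value on only 5 of the 8 arrays. Without the block its log2 fold change was 0.33 (standard error 0.23, unadjusted p = 0.198 by limma).

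Ccl4, a chemokine of activated macrophages, had -0.75, -0.73, -1.12 and -0.58 in wild-type and -0.47, -0.26 and -0.61 in transgenic replicates 1, 2 and 4. Transgenic replicate 4 lay just below wild-type replicate 4, and the log2 fold change was 0.35 (standard error 0.15, unadjusted p = 0.0392 and adjusted p = 1 by limma). The count of 3 rested on single mice. It was 6 without transgenic replicate 4, where Cd180, Tab1 and Irf5 joined these 3 genes. It was 1 without wild-type replicate 2 or wild-type replicate 3, and 0 without wild-type replicate 1 or transgenic replicate 2. In these fits 3.19%, 1.58%, 1.99%, 2.14% and 1.5% of all probes were called, in that order. B cell markers, which were higher on average in transgenic replicates 1 and 2 than on any wild-type array, ran from -0.45 to -0.0054 in wild-type and from -0.21 to 0.55 in transgenic mice, and their part in these calls was not tested.

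Co-receptors and chaperones gave 0 calls among 11 genes tested. For Cd14, which hands lipopolysaccharide to Tlr4, the difference on the log2 scale was -0.16 with a standard error of 0.20, and for Ly96, which encodes MD-2, it was 0.08 with one of 0.14. For Unc93b1, which carries the nucleic acid receptors to endosomes, it was 0.09 with one of 0.12. These differences are smaller than their standard errors.

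Of the adaptors 5 genes were tested and 0 were called, and for Myd88 the difference was -0.0096 on the log2 scale with a standard error of 0.11. Among 14 kinases and ubiquitin ligases and among 13 inhibitors the count was 0 as well. Irak3, an inhibitor of the receptor kinases, differed by 0.13 on this scale with a standard error of 0.10, and Tnfaip3, the ubiquitin-editing inhibitor of NF-kB, by 0.0043 with one of 0.13. Of 16 induced targets tested only Ccl4 was called. The cytokine genes Tnf and Il1b differed by -0.15 (standard error 0.12) and 0.11 (standard error 0.17), and Il6 was well above background on 1 of 8 arrays and was not tested.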

How the data were processed

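Lung RNA of 4 wild-type and 4 transgenic mice was measured on 8 two-color arrays. For every array the deposited scanner output is that of Agilent Feature Extraction (version 10.10.1.1 per the file headers, 11.0.1.1 per the labels). It gives median signals, local backgrounds, processed intensities and the log10 ratios that the authors' software made from them. A second table that the authors deposited holds log2 ratios, which equal the log2 ratio of processed signals within 0.001 for 39811 of 39811 probes with a single spot. The methods name GeneSpring and a t-test.

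Here the median intensities that the authors deposited were corrected with normexp (offset 50, fitted on spots without an outlier flag), normalized by loess within each array and averaged over the spots of a probe, in R 4.3.3 with limma 3.58.1. Probes entered the test if they were well above background in Cy5 on at least 4 of the 8 arrays, with at least 2 values per genotype. The test was limma's moderated test, two-sided, with Benjamini-Hochberg adjustment over all 32653 probes tested, and was tested on simulated data. Intervals are 95% intervals of limma. A gene with several probes is represented by the one with the brightest mean. Genes are named by rule, as all receptor probes, the pathway genes with an unadjusted p under 0.05 or best known, and the 3 genes most like each receptor, of which 1 is not reported here. Cd180, Tab1, Irf5 and Pik3ap1 were named after their values were seen. The receptors, lists and tests were chosen with earlier results of these data known.

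The mean of a marker list used only genes with a value on every array. Alternatives changed the background correction, normalization, filter, test, blocks and mice. The number of arrays limits the precision. The age is approximately 8 weeks and the kit RNeasy in the methods, against miRNeasy in the labels. Same-numbered mice did not all deviate together (Pearson r 0.32, 0.25, -0.085 and -0.21 for replicates 1 to 4), so the numbers were not used as pairs. Those of replicates 1 and 2 shared a slide. Gene symbols came from the deposited matrix for 33870 probes and from RefSeq for 933 more. Figures were drawn with matplotlib 3.10.9 in Python 3.11.15.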

Additional observations from a re-analysis of the deposited data

How the results depend on the processing

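Under all 25 alternative fits the count of Toll-like receptor probes with an adjusted p under 0.05 by limma or the methods' t-test stayed at 0. At an unadjusted p under 0.05 it was 1 with Agilent processed signals, with the deposited matrix by limma and by the methods' t-test, and with trend and robust moderation. It was 2 with array weights, with the scan day as a block and with a block for the slide. In these fits 2.57%, 2.56%, 2.43%, 2.19%, 3.7%, 2.43% and 3.72% of all probes were called, in that order, against 2.09% in the main fit. The receptor count ran from 0 to 2 over the fits that left out a mouse, which called 1.5% to 3.63% of all probes. The replicate block gave 0. Same-numbered mice shared a slide for replicates 1 and 2 but not for replicates 3 and 4. The count of pathway genes was 0 with normexp fitted on all spots and with no normalization, and ran from 0 to 6 over the fits without a mouse. It was 1 with median-centred ratios, with the sample channel alone and with the replicate block. Of all probes, normexp on all spots called 1.2%, no normalization 1.56% and median-centred ratios 1.84%. The sample channel alone called 0.913% and the replicate block 2.71%. The direction turned for Tlr8 with an offset of 0 (0.057), normexp on all spots (0.10), the sample channel alone (0.086), the deposited matrix by both tests and the processed signals (0.12), and without transgenic replicate 4 (0.095), where the fits without a mouse ran from -0.19 to 0.095. Tlr9 turned with median-centred ratios (-0.043), no normalization (-0.13), the sample channel alone (-0.067), flagged spots kept (-0.088), the deposited matrix by both tests (-0.11) and array weights (-0.087), and could not be fitted without transgenic replicate 1 or 2. Tlr4 turned with median-centred ratios (-0.011) and no normalization (-0.11), and Tlr6 with normexp on all spots (0.017). Tlr1, Tlr2, Tlr3, Tlr5 and Tlr7 kept their direction under every alternative. The cause of these changes was not tested. The number of receptors below the pool was 7 or 8 under the 19 alternatives for which it was computed.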
